A study of Mus musculus with 16 samples.

Results

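RNA sequencing of whole inguinal glands from lactating mice measured the enzymes and carriers of ketone body use. The set has 7 named genes of the 22196 genes in the files, namely Bdh1, Bdh2, Oxct1, Acat1, Aacs, Slc16a1 and Slc16a6. For each gene the estimated read counts of its listed transcripts were added up, using gene symbols of GENCODE M21, and all 7 were found. Diet (NCD, which the labels do not expand, or HFD, a high fat diet given during lactation) was crossed with treatment (metformin, a glucose-lowering drug, or control). The groups were NCD metformin, NCD control, HFD metformin and HFD control, with 4 libraries in each, 16 in all. Every library carries the age label postnatal day 16 and the descriptions end in PN, which is not explained. The series title places the glands in mid-lactation. The sources used here do not give strain, metformin dose or length of treatment. Totals ran from 8649318 counts in HFD control 4 to 39156650 counts in NCD metformin 4. No label states that each library of a group is a different animal, and the p-values then reflect only how far these samples scatter, part of which may be technical.

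Ketone bodies, beta-hydroxybutyrate and acetoacetate, are made from fatty acids by the liver and burnt by other tissues. A monocarboxylate carrier lets them into the cell, a dehydrogenase turns beta-hydroxybutyrate into acetoacetate, a CoA transferase activates acetoacetate in the mitochondrion and a thiolase splits the product into acetyl-CoA. In the cytosol a separate synthetase activates acetoacetate for the synthesis of fatty acids and sterols. Lactating mammary tissue makes large amounts of fat for milk, and in ruminants such as the cow and goat ketone bodies are a recognised carbon source for it.

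The luminal epithelial markers fixed for the check of the tissue (Krt8, Krt18, Epcam, Elf5, Csn2, Wap, Lalba and Csn3) were all tested and added up to 243000 to 387000 CPM (counts scaled by TMM to a common library size) in a library. Milk protein genes gave most of this sum, with a mean of 144000 CPM for Csn2 in NCD metformin against 105 CPM for Krt8. In NCD metformin 3 and HFD control 4 only 7 of the 8 markers had counts. NCD control 3 stood apart. It had 3390 CPM of skeletal muscle markers in sum, against 126 CPM at most in the other 15, and with 1110 CPM it also had the highest sum of adipocyte markers. Results on NCD, other than those of the marker sets, are therefore also given without it where its removal changed them.

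RefSeq promoter windows (GRCm38.p6, from 250 bases before to 50 after a listed start) were found for 5 of the 7 genes, in 6 windows, all on the plus strand. Windows for Acat1 and Slc16a6 were not matched. Shown are the 4 windows found for the genes called higher with metformin on NCD. Capitals mark any of 7 motifs searched on both strands, and the letters run in the direction of transcription. A match on the opposite strand shows as its reverse complement. The motifs were AAGGTCA, the recognition site of oestrogen related receptors and some other nuclear receptors, GCGCATG, most of the NRF1 element, TGACGT, the core of the CREB and ATF element, CACGTG, the E-box, TCACNCC, the core of the SREBP element, GGGCGG, bound by SP1, and CCAAT, bound by NFY.
Bdh1, chr16:31422047-31422346: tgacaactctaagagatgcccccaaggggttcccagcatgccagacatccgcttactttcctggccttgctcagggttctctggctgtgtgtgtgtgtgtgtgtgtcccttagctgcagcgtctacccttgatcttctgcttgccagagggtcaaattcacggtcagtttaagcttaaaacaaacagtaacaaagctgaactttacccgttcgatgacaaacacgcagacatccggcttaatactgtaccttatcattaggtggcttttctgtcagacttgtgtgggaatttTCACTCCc
Bdh1, chr16:31428503-31428802: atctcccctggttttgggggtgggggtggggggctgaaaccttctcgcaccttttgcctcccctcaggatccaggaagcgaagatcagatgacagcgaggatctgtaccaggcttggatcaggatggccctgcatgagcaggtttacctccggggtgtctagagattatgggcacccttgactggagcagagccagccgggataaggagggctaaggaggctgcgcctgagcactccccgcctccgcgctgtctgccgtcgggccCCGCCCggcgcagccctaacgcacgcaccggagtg
Oxct1, chr15:4026178-4026477: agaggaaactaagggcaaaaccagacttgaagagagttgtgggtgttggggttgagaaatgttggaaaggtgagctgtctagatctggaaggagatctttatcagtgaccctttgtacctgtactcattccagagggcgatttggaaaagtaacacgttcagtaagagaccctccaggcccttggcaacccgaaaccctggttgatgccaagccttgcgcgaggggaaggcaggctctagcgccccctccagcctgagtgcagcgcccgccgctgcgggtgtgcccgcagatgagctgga
Aacs, chr5:125475623-125475922: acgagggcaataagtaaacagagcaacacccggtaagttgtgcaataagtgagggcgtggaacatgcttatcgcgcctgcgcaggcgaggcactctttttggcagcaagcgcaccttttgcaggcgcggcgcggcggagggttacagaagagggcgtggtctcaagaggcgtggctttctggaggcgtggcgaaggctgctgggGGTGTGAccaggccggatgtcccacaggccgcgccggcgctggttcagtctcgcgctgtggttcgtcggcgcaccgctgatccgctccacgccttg

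TCACNCC was found in the upstream Bdh1 window, 43 bases after the start, and in the Aacs window, 46 bases before it. It occurred in 15.6% of all 32851 windows of this length. The downstream Bdh1 window held GGGCGG, which 35.7% of windows held. The Oxct1 window held none of the 7. The other shares of all windows were 4.72% for AAGGTCA, 3.91% for GCGCATG, 7.51% for TGACGT, 7.15% for CACGTG and 37.4% for CCAAT. Of the windows not printed, that of Slc16a1 held the NRF1, E-box and SP1 motifs and that of Bdh2 the NFY motif. A match is a description of letters, and no motif was shared by all the windows of the genes that rose.

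The mitochondrial enzymes of ketone body use stood high among the genes of the gland, Aacs and Slc16a1 lay lower, and Slc16a6 and Bdh2 had few counts. In TPM (a share of transcripts corrected for coding length) Oxct1, the mitochondrial CoA transferase that commits acetoacetate to oxidation, was highest, with 55.7 ± 12.6 TPM over all libraries (SD, n = 16). Bdh1, the mitochondrial beta-hydroxybutyrate dehydrogenase, had 21.5 ± 7.12 TPM. Acat1, the mitochondrial acetoacetyl-CoA thiolase that also serves isoleucine breakdown, had 12 ± 3.09 TPM. These levels stood at the percentiles 96.5, 91.1 and 84.9 of the 12506 genes tested. Aacs, the cytosolic acetoacetyl-CoA synthetase, had 5.93 ± 1.84 TPM (percentile 73.4). Slc16a1, which encodes the monocarboxylate carrier MCT1 for lactate, pyruvate and ketone bodies, had 2.56 ± 1.62 TPM (percentile 54.6). Slc16a6, a relative that exports ketone bodies from the liver in zebrafish, had 0.119 ± 0.0721 TPM (percentile 5.0). Bdh2, a cytosolic dehydrogenase of the same name, had 0.0871 ± 0.0840 TPM (SD, n = 16 for each).

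Over the 16 libraries Oxct1, from 40.5 to 80.0 TPM, did not overlap with Bdh1, from 11.5 to 33.8 TPM. Bdh1 overlapped with Acat1, from 8.36 to 18.2 TPM, over all libraries but in no single group. Acat1 overlapped with Aacs, from 3.52 to 11.1 TPM, and Aacs with Slc16a1, from 0.865 to 7.73 TPM. The lowest pair, Slc16a6 (0.0306 to 0.251 TPM) and Bdh2 (0 to 0.280 TPM), overlapped with each other and lay below all the rest. Bdh2 had 8 counts over the 4 NCD metformin libraries and 15 over the NCD control libraries, with 6 over the HFD metformin and 13 over the HFD control libraries. With 42 counts in all and 3 libraries at 0, Bdh2 did not pass the filter on low counts, so 6 of the 7 genes were tested. A count of 0 allows up to 3 counts, or 0.0766 to 0.347 CPM depending on the library, and this covers counting error only.

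**Figure D1:**
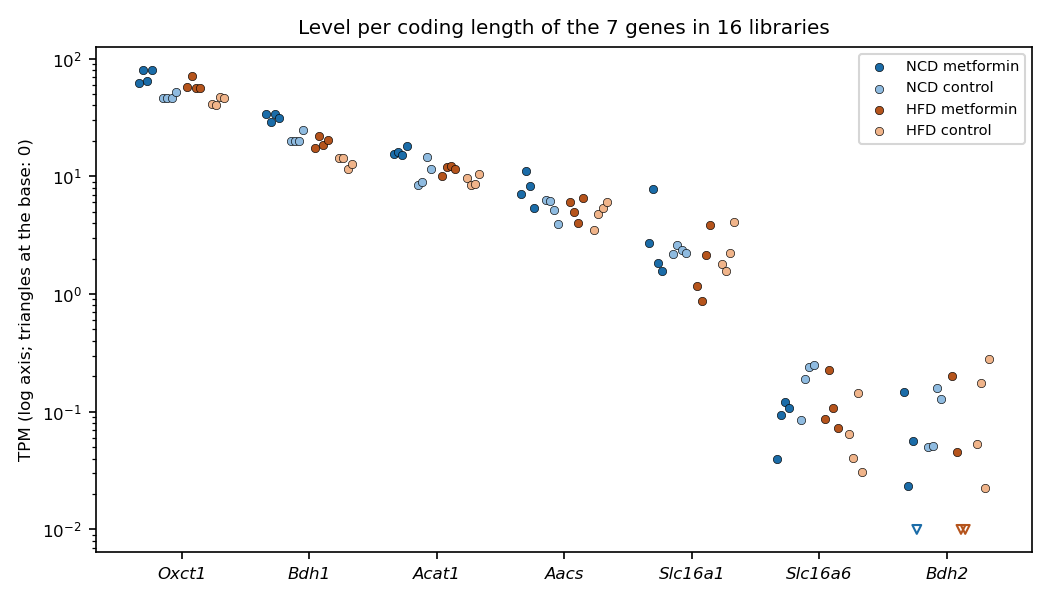
Level of the 7 genes in TPM, on a log axis, with 1 point per library, colours for the 4 groups and triangles for libraries at 0. Oxct1 lies at 40.5 to 80.0 TPM in every library, while Slc16a6 and Bdh2 stay at or below 0.280 TPM.

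The counts of Oxct1 came from a single listed transcript, Oxct1-201, for 99.71 to 100% in each library. Those of Bdh1 were divided between Bdh1-201 (coding length 1032 bases, 64.96 to 76.12%) and Bdh1-206 (796 bases, 23.88 to 35.04%), and the groups overlapped. Acat1, Aacs and Slc16a1 have 1 listed transcript each. On GRCm38, Oxct1 (ENSMUSG00000022186.14) lies on chromosome 15 from 4026383 to 4155344 and Bdh1 (ENSMUSG00000046598.15) on chromosome 16 from 31422280 to 31458901, both on the plus strand. Acat1 (ENSMUSG00000032047.5) lies on chromosome 9 from 53580522 to 53610382 on the minus strand, and Aacs (ENSMUSG00000029482.4) on chromosome 5 from 125475814 to 125517410 on the plus strand. Values are of coding sequence over whole genes, so no exon or untranslated region was measured apart.

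With metformin on NCD, the 3 mitochondrial enzymes and the cytosolic synthetase rose by similar amounts. Bdh1 rose 1.65-fold, Oxct1 1.66-fold, Acat1 1.64-fold and Aacs 1.63-fold. The carriers Slc16a1 and Slc16a6 did not pass the test. In all 4 of the 6 tested genes were called higher and 0 lower at an adjusted p under 0.05 by edgeR's quasi-likelihood test, where 10% of all 12506 genes were called, 4.01% higher and 6.03% lower. The median log2 fold change of the 6 was 0.71, against -0.00 for all genes tested. The share over all genes rested on single libraries. The 1255 genes called became 180 without NCD metformin 2, 384 without NCD control 1, 511 without NCD metformin 3, 564 without NCD control 2 and 788 without NCD control 3.

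Bdh1 had 65.5, 58.4, 62.8 and 62.2 CPM in the NCD metformin libraries, against 34.6, 37.8, 35.7 and 43.0 CPM in the NCD control libraries. All 4 metformin libraries lay above every control library, and the SD of the metformin libraries was 4.74% of their mean. The log2 fold change was 0.72 ± 0.11 (SE, 95% interval 0.48 to 0.96, adjusted p = 0.00488, edgeR). Oxct1 had 244, 316, 245 and 323 CPM in NCD metformin, against 159, 174, 165 and 181 CPM in NCD control. These groups did not overlap either, and NCD metformin 2 and 4 lay above the other two metformin libraries. Its log2 fold change was 0.73 ± 0.12 (SE, 95% interval 0.48 to 0.98, adjusted p = 0.00614, edgeR).

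Acat1 had 45.1, 47.4, 43.4 and 55.0 CPM in NCD metformin, against 21.6, 25.5, 39.3 and 30.3 CPM in NCD control. The groups did not overlap, and the highest control library, at 39.3 CPM, was the one rich in muscle transcripts, NCD control 3. The log2 fold change was 0.71 ± 0.15 (SE, 95% interval 0.39 to 1.03, adjusted p = 0.0159, edgeR), and 0.88 (adjusted p = 0.00707) without NCD control 3. Without NCD metformin 2 it was 0.72 and no longer called (adjusted p = 0.0508). Groups without overlap, which Bdh1, Oxct1 and Acat1 had, occurred in 18.6% of all genes tested in this comparison.

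Aacs had 40.1, 64.7, 46.9 and 31.5 CPM in NCD metformin, against 32.0, 33.6, 26.4 and 20.3 CPM in NCD control. The groups overlapped, with NCD metformin 4 below 2 of the control libraries. The log2 fold change was 0.71 ± 0.21 (SE, 95% interval 0.26 to 1.15, adjusted p = 0.043, edgeR), and the call was the least stable of the 4. It ended under 13 of 24 alternatives, among them the removal of any single NCD control library, of NCD metformin 1, 2 or 3, of HFD control 2 or 3 and of HFD metformin 2. Without NCD metformin 2, its highest library, the value was 0.49 (adjusted p = 0.153). Without NCD metformin 2 only Bdh1 and Oxct1 of the 6 tested genes were called, 2 in place of 4, in a fit that called 180 of 12627 genes in all.

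Slc16a1 had 9.34, 27.1, 6.22 and 5.58 CPM in NCD metformin, against 6.61, 8.72, 7.49 and 7.01 CPM in NCD control. A single library, NCD metformin 2, was far above all the others, and 2 metformin libraries lay below every control library. The log2 fold change of 0.69 ± 0.47 (SE, 95% interval -0.30 to 1.68, adjusted p = 0.359, edgeR) became -0.09 without that library. Slc16a6 had 0.152, 0.368, 0.457 and 0.422 CPM in NCD metformin and 0.289, 0.423, 0.603 and 0.477 CPM in NCD control, at 1 to 19 counts in any of the 16 libraries. Its log2 fold change was -0.33 ± 0.42 (SE, 95% interval -1.23 to 0.56, adjusted p = 0.651, edgeR).

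**Figure D2:**
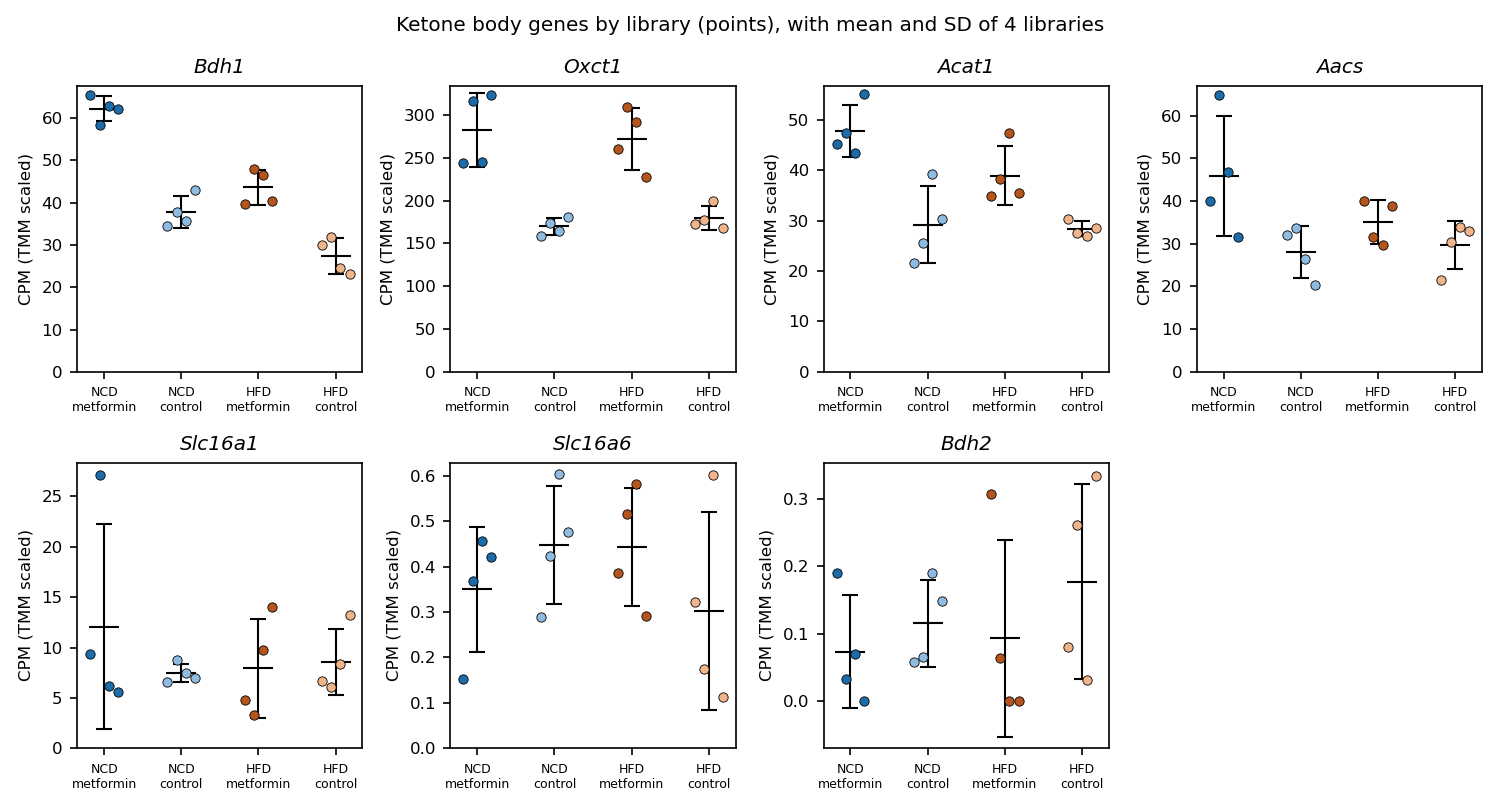
CPM of each gene by library in the 4 groups, with the mean and SD of 4 libraries as bars. Bdh1, Oxct1 and Acat1 lie higher in every metformin library than in every control library of the same diet, while Slc16a1 has 1 library at 27.1 CPM in NCD metformin.

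Markers of other cells moved with this comparison in part. Adipocyte markers added up to 408, 931, 862 and 872 CPM in NCD metformin and 212, 247, 1110 and 268 CPM in NCD control, with 9 of 10 positive, a median log2 fold change of 0.44 and 0 of 10 called. Of 9 tested muscle markers 8 were called lower. Their sum was 3390 CPM in NCD control 3, 1.04 to 18.4 CPM in the other NCD control libraries and 0.798 to 24.9 CPM in NCD metformin. Endothelial markers had 1 of 7 called higher (62.4 to 105 CPM in sum against 49.8 to 70.2 CPM) and macrophage markers 1 of 7 called lower (65.3 to 82.1 CPM against 91.2 to 137 CPM). B and plasma cell markers had the highest median of the 8 marker sets, 0.67, with 4 of 4 tested positive and 0 called (28.2 to 99.5 CPM in sum against 44.3 to 119 CPM). Luminal epithelial markers had 0 of 8 called and a median of 0.08, myoepithelial markers 0 of 7 and 0.08, and T cell markers 0 of 2 and -0.39. In whole tissue, fewer cells of a type and less RNA per cell cannot be told apart, and the part of these markers in the ketone body results was not tested. Without NCD control 3 the fold changes of Bdh1 (0.69) and Oxct1 (0.71) were nearly as large and still called. The other NCD control libraries, at 212, 247 and 268 CPM of adipocyte markers, all lay below every NCD metformin library. Leaving out NCD control 3 thus widened the gap between the groups in these markers.

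On HFD the same mitochondrial enzymes were higher with metformin in every library, but only Bdh1 passed. Bdh1 had 39.8, 47.9, 46.6 and 40.5 CPM in HFD metformin, against 29.9, 31.9, 24.5 and 23.1 CPM in HFD control. The groups did not overlap, and the rise was 1.60-fold (log2 fold change 0.67 ± 0.11 SE, 95% interval 0.44 to 0.91, adjusted p = 0.0202, edgeR). Thus 1 of 6 tested genes was called, where 0.168% of all genes were called and 0.128% higher. The call of Bdh1 ended without HFD metformin 2 (adjusted p = 0.0791), HFD metformin 3 (0.0947), HFD control 3 (0.0906) or HFD control 4 (0.0875), with log2 fold changes of 0.60 to 0.76 over all removals.

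Oxct1 had 260, 309, 292 and 227 CPM in HFD metformin, against 173, 177, 200 and 168 CPM in HFD control. The groups did not overlap, and the log2 fold change of 0.60 ± 0.12 (SE, 95% interval 0.35 to 0.85) missed the threshold by little (adjusted p = 0.0517, edgeR). It passed under 3 of 24 alternatives, among them without HFD metformin 4 (adjusted p = 0.0275). Under the other 21 it was not called, with adjusted p of 0.142 with library size only, 0.157 with the 2 groups alone and at most 0.188. Acat1 had 34.8, 38.2, 47.3 and 35.4 CPM in HFD metformin, against 30.3, 27.5, 27.0 and 28.6 CPM in HFD control, again without overlap. Its log2 fold change was 0.46 (95% interval 0.13 to 0.78, adjusted p = 0.225, edgeR). These 3 genes were without overlap where 6.65% of all genes tested were. Markers of other cells had 0 called in every set. Their median log2 fold changes were 1.85 for muscle (8 of 9 positive), 0.69 for B and plasma cells (3 of 4 positive), 0.41 for adipocytes (8 of 10 positive), 0.15 for luminal epithelial (8 of 8 positive) and 0.15 for myoepithelial cells (5 of 7 positive). They were -0.14 for endothelial cells, -0.17 for macrophages and -0.73 for T cells, and the part of any of these in the ketone body results was not tested. For muscle, HFD metformin 1 alone had 126 CPM in sum. The other HFD metformin libraries had 0.761 to 1.42 CPM, and HFD control had 1.07 to 17.2 CPM.

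The cytosolic synthetase and the carriers gave smaller or uncertain values on HFD. Aacs had 40.1, 31.6, 29.7 and 38.9 CPM in HFD metformin and 21.5, 30.4, 33.8 and 32.9 CPM in HFD control, with overlap and a log2 fold change of 0.25 (95% interval -0.20 to 0.69, adjusted p = 0.667, edgeR). Slc16a1 had 4.77, 3.28, 9.71 and 14 CPM in HFD metformin and 6.65, 6.07, 8.32 and 13.2 CPM in HFD control. Both groups spread widely, and the log2 fold change was -0.06 (95% interval -1.08 to 0.96). Slc16a6 had 0.385, 0.515, 0.582 and 0.291 CPM in HFD metformin and 0.322, 0.175, 0.601 and 0.112 CPM in HFD control, with a log2 fold change of 0.41 (95% interval -0.54 to 1.36).

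Whether the metformin effect differed between diets was tested as an interaction, the effect on HFD minus that on NCD. None of the 6 tested genes passed by edgeR or by DESeq2, and 0 had an unadjusted p under 0.05. Over all genes 0% were called by edgeR (0 of 12506, with 1243 at an unadjusted p under 0.05 and 22 called by DESeq2). The log2 difference was -0.05 for Bdh1 (95% interval -0.38 to 0.29), -0.13 for Oxct1 (-0.48 to 0.23), -0.25 for Acat1 (-0.71 to 0.21) and -0.46 for Aacs (-1.09 to 0.16). For Slc16a1 it was -0.75 (-2.17 to 0.67) and for Slc16a6 0.74 (-0.56 to 2.05). The intervals of Acat1, Aacs and the carriers leave room for diet differences as large as the metformin effect on NCD.

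Averaged over both diets, the metformin effect was called for the 3 mitochondrial enzymes and for Aacs, 4 of 6 tested genes, where 11.4% of all genes were called, 5.82% higher and 5.57% lower. The log2 fold change was 0.70 ± 0.08 (SE, adjusted p = 0.000191) for Bdh1, 0.67 ± 0.08 (adjusted p = 0.000501) for Oxct1 and 0.58 ± 0.11 (adjusted p = 0.00507) for Acat1 (edgeR). Bdh1 ranked 9 and Oxct1 13 among all genes by p. The calls of these 3 held under all 23 alternatives. Aacs had 0.48 ± 0.15 (SE, adjusted p = 0.048, edgeR) and lost its call under 17 of 23. Slc16a1 had 0.31 (95% interval -0.39 to 1.02) and Slc16a6 0.04 (-0.62 to 0.69), neither called. Marker medians were -2.54 for muscle (9 of 9 negative, 1 called lower) and 0.60 for B and plasma cells (4 of 4 positive). They were 0.35 for adipocytes (8 of 10 positive), 0.20 for endothelial, 0.09 for luminal epithelial and 0.08 for myoepithelial cells. Those of macrophages (7 of 7 negative) and T cells were -0.32 and -0.56. The sets other than muscle had 0 called, and the part of these markers was not tested.

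**Figure D3:**
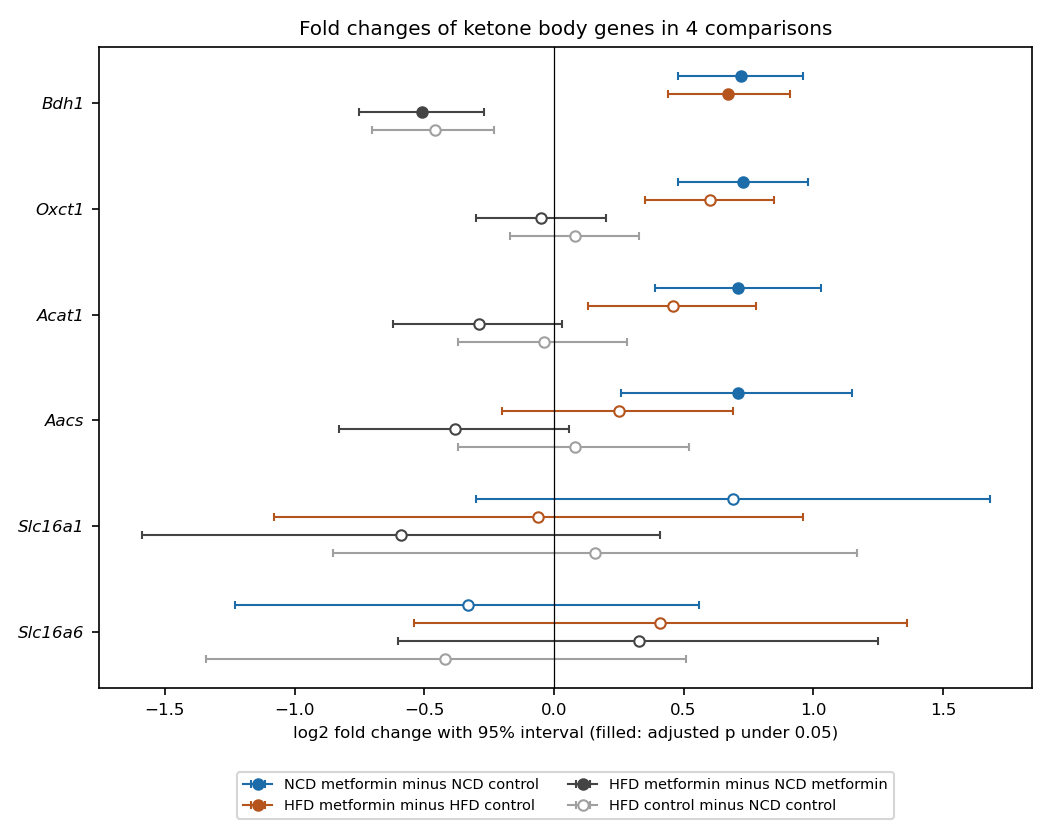
Log2 fold changes of the 6 tested genes with 95% intervals in 4 comparisons, filled where the adjusted p was under 0.05. Bdh1 is higher with metformin on either diet and lower on HFD with metformin (-0.51), while the intervals of Slc16a1 and Slc16a6 span 0 throughout.

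Diet moved Bdh1 and not, past the threshold, any other of the 6. With metformin, Bdh1 had 39.8 to 47.9 CPM on HFD and 58.4 to 65.5 CPM on NCD, without overlap, a fall of 0.51 ± 0.11 on the log2 scale (SE, 95% interval for the log2 fold change -0.75 to -0.27, adjusted p = 0.0367, edgeR). This made 1 of 6 called, where 2.36% of all genes were called, 1.86% higher and 0.504% lower, and 10.2% of genes had no overlap. The 295 genes called became 3 to 5 without HFD metformin 1 or 2 or NCD metformin 2 or 3, and 97 to 181 without HFD metformin 4, HFD control 2 or 3, NCD control 2 or NCD metformin 1. The call of Bdh1 ended without any of NCD metformin 1, 2 or 3, HFD metformin 1, 2 or 4 or NCD control 2, at log2 fold changes of -0.56 to -0.47 over all removals. Luminal epithelial markers added up to 299000 to 387000 CPM on HFD and 271000 to 282000 CPM on NCD with metformin, with 0 of 8 called and a median log2 fold change of 0.27. Endothelial markers had 1 of 7 called lower (median -0.35, 6 of 7 negative) and macrophage markers 1 of 7 called higher (median 0.04). The sets without calls had medians of -0.73 (T cell), -0.55 (adipocyte, 8 of 10 negative), -0.40 (B and plasma cell, 4 of 4 negative), 0.02 (myoepithelial) and 1.65 (muscle). For muscle, only HFD metformin 1 had a high sum, 126 CPM. The other HFD metformin libraries had 0.761 to 1.42 CPM, and NCD metformin had 0.798 to 24.9 CPM. The part of these markers in the Bdh1 result was not tested. This comparison shares the NCD metformin libraries with the metformin effect on NCD and the HFD metformin libraries with that on HFD.

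Without metformin, Bdh1 had 23.1 to 31.9 CPM on HFD and 34.6 to 43.0 CPM on NCD, again without overlap, which 4.12% of genes showed. The log2 fold change was -0.46 ± 0.11 (SE, 95% interval -0.70 to -0.23) but not called (adjusted p = 0.203, edgeR). None of the 6 was called, 1 had an unadjusted p under 0.05 and 1, Bdh1, was called by DESeq2 (adjusted p = 0.02). Over all genes edgeR called 0.0640%, 0.0160% higher, while DESeq2 called 65 of 12506. Averaged over both treatments, Bdh1 fell by 0.49 ± 0.08 on the log2 scale (SE, adjusted p = 0.0119, edgeR), 1 of 6 where 0.936% of all genes were called and 0.416% lower, and this call held under all 23 alternatives. Marker medians without metformin and averaged were -0.44 and -0.52 for adipocytes (8 of 10 negative in both), -0.63 and -0.44 for B and plasma cells, -6.73 and -2.52 for muscle (9 of 9 negative in both) and -0.39 and -0.56 for T cells. They were 0.12 and 0.22 for luminal epithelial, -0.01 and 0.04 for myoepithelial, 0.19 and -0.10 for endothelial cells and -0.02 and 0.01 for macrophages. For muscle, NCD control 3 alone had 3390 CPM in sum. The other NCD control libraries had 1.04 to 18.4 CPM, and HFD control had 1.07 to 17.2 CPM. None of these markers was called by edgeR in either comparison, and their part in the Bdh1 result was not tested.

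Oxct1 had an averaged diet effect of 0.01 on the log2 scale with a 95% interval of -0.16 to 0.19. That interval leaves out a change of the size seen for Bdh1. Acat1 had -0.17 (95% interval -0.40 to 0.06, adjusted p = 0.459, edgeR) and Aacs -0.15 (-0.47 to 0.16). With metformin alone the diet effects were -0.05 for Oxct1, -0.29 for Acat1, -0.38 for Aacs and -0.59 for Slc16a1, none called. Without metformin they were 0.08 for Oxct1, -0.04 for Acat1, 0.08 for Aacs and 0.16 for Slc16a1, none called. Slc16a1 (-0.21, 95% interval -0.92 to 0.49) and Slc16a6 (-0.04, -0.70 to 0.61) gave no averaged diet effect that passed.

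Ratios within a library do not depend on scaling between libraries, and they separate the dehydrogenase from the transferase. The TPM of Bdh1 relative to that of Oxct1 was 0.306, 0.307, 0.328 and 0.364 in HFD metformin, against 0.543, 0.364, 0.522 and 0.388 in NCD metformin. It was 0.348, 0.355, 0.243 and 0.278 in HFD control, against 0.434, 0.437, 0.436 and 0.474 in NCD control. HFD lay below NCD in either treatment without overlap, although HFD metformin 4 and NCD metformin 2 were the same to 3 digits. The averaged log2 difference was -0.51 (exact permutation p = 0.000408, the smallest these relabelings allow, adjusted p = 0.00735 over 18 tests on ratios), and within each treatment the p was 0.0286, also the smallest possible (adjusted p = 0.171). Metformin changed this ratio by 0.06 on the log2 scale (exact permutation p = 0.569). This ratio and that of Oxct1 to Cs were chosen after their values were seen, and the adjustment over 18 tests does not cover that choice.

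The ratio of Oxct1 to Aacs sets mitochondrial against cytosolic activation of acetoacetate. Its log2 mean was 3.21 ± 0.48 in NCD metformin and 3.16 ± 0.38 in NCD control, and 3.49 ± 0.39 in HFD metformin and 3.17 ± 0.27 in HFD control (SD, n = 4, in TPM). No comparison passed (two-sided exact permutation p = 0.857 for metformin on NCD, 0.2 for metformin on HFD, 0.943 for HFD without metformin and 0.314 for HFD with metformin). Relative to Cs, citrate synthase, the log2 ratio of Oxct1 was 0.16 ± 0.32 with metformin and -0.07 ± 0.13 in controls (SD, n = 8). The difference of 0.23 was not significant (exact permutation p = 0.0894, adjusted p = 0.402).

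**Figure D4:**
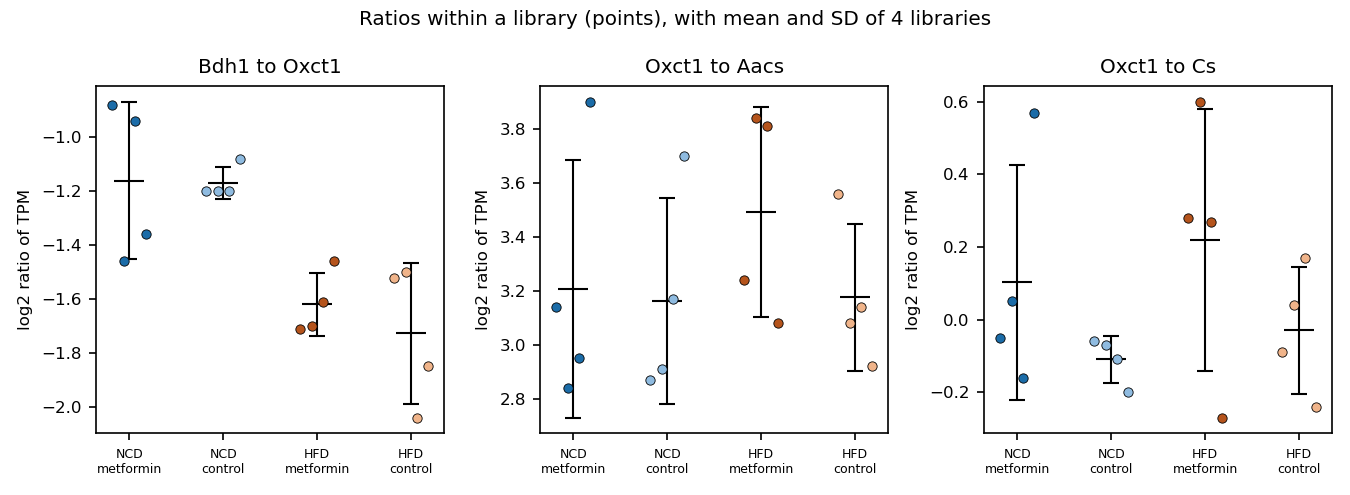
Log2 ratios of TPM within each library for Bdh1 to Oxct1, Oxct1 to Aacs and Oxct1 to Cs, with the mean and SD of 4 libraries. The Bdh1 to Oxct1 ratio is lower on HFD than on NCD with either treatment, by 0.51 on average, and the other ratios overlap between groups.

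The citric acid cycle, which burns the acetyl-CoA from ketone bodies and supplies the succinyl-CoA that Oxct1 uses, was higher with metformin on NCD. The median log2 fold change of its genes was 0.40, against 0.71 for the ketone body genes, a difference that was not tested. Of the 17 genes of the cycle 12 were called higher and 0 lower, and all 17 were positive. Among those with the lowest p were Sdha, the flavoprotein of succinate dehydrogenase (0.49 ± 0.10 SE, adjusted p = 0.014), and Sdhd, its membrane anchor (0.47 ± 0.10, adjusted p = 0.0146, both edgeR). On HFD 0 of 17 were called by edgeR (9 at an unadjusted p under 0.05 and 3 called by DESeq2), all 17 were positive and the median was 0.31. Averaged over diets 13 of 17 were called higher, with a median of 0.34. For HFD against NCD with metformin 0 of 17 were called by edgeR or DESeq2 (3 at an unadjusted p under 0.05), and all 17 were negative with a median of -0.15. With library size only as the scaling, 4 of these were called lower. On NCD the count was 2 without NCD metformin 2, 3 without NCD control 1, 6 without NCD control 2 or NCD metformin 3, 7 without NCD control 4 and 6 with library size only or with counts rebuilt from TPM. Averaged over diets it was 8 without HFD metformin 3.

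A list of 8 genes covered the supply and use of acetyl-CoA, mostly in the cytosol, the compartment of Aacs, with the mitochondrial synthetase Acss1 among them. With metformin on NCD 2 of 8 were called higher, Slc25a1, the mitochondrial citrate carrier (0.74 ± 0.16 SE, adjusted p = 0.0171), and Acly, ATP citrate lyase (0.62 ± 0.15, adjusted p = 0.0211, edgeR). The count was 0 without NCD metformin 2, 1 without NCD control 1, 5 without NCD control 4 and 4 by DESeq2. On HFD 0 of 8 were called by edgeR or DESeq2 (1 at an unadjusted p under 0.05), with a median of -0.10. With metformin, HFD against NCD gave 3 of 8 called lower, among them Slc25a1 (-0.82) and Acss2, the acetyl-CoA synthetase of the cytosol (-0.59, adjusted p = 0.0322 each, edgeR). This count was 0 without NCD metformin 2, NCD metformin 3, HFD metformin 1 or HFD metformin 2 and 1 without HFD metformin 4. Averaged over diets, Acly (0.37, adjusted p = 0.0328) and Slc25a1 (0.39, adjusted p = 0.0399) were called higher with metformin, and 14 of 23 alternatives lowered this count of 2 to 1 or 0.

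**Figure D5:**
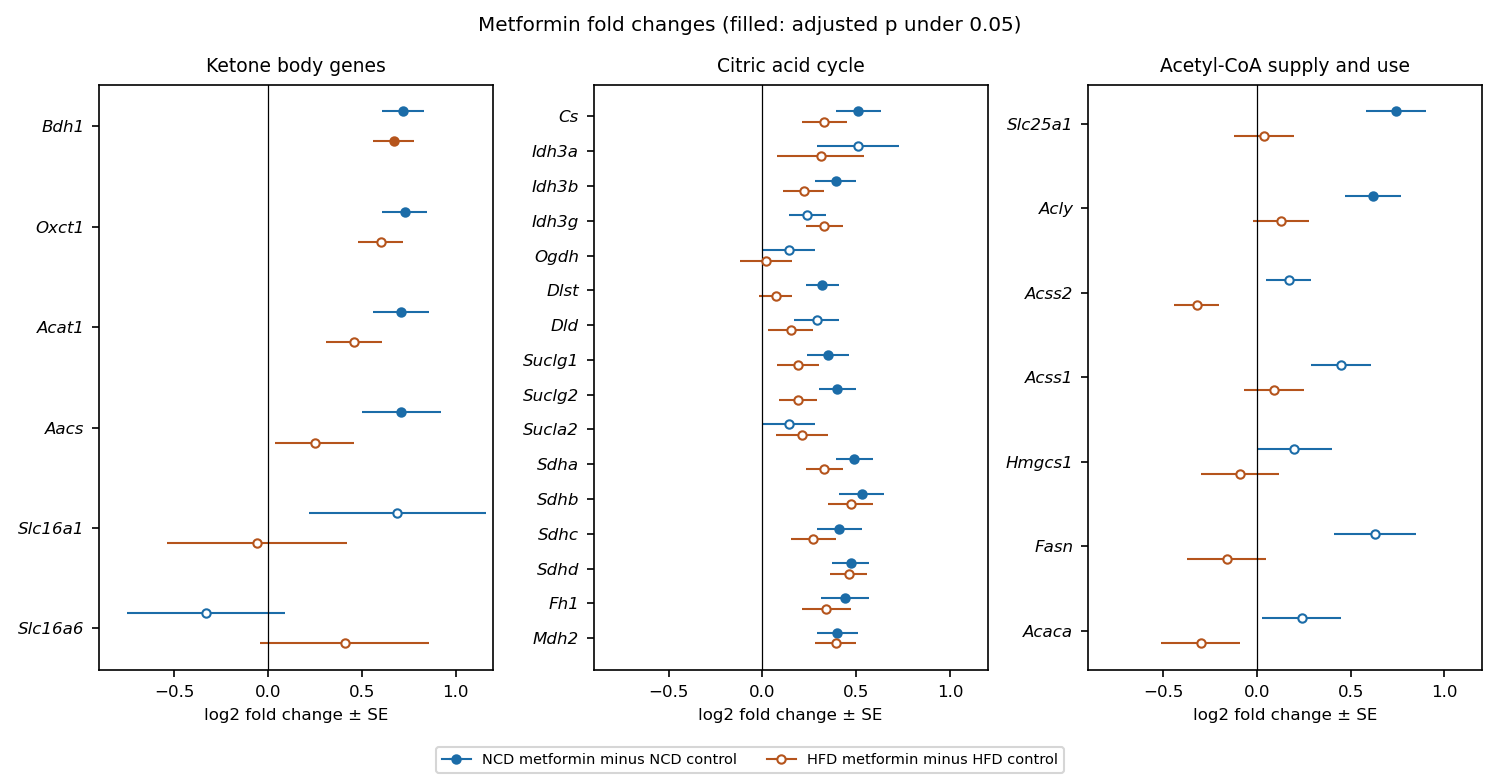
Metformin log2 fold changes with SE on NCD and on HFD for the ketone body genes and for genes of the citric acid cycle and of acetyl-CoA supply and use, filled where the adjusted p was under 0.05. The citric acid cycle genes drawn are all positive on either diet, and Slc25a1 and Acly are called on NCD.

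Of the 3 genes listed for ketone body synthesis, Hmgcll1, a lyase found outside the mitochondrion, had a log2 fold change of -1.23 with metformin on NCD, not called, and -1.36 ± 0.42 averaged over diets (SE, adjusted p = 0.0456, edgeR), at group means of 0.248 to 0.803 CPM. That call ended under 14 of 23 alternatives, and among single libraries it held only without NCD control 3, NCD metformin 1 or 4 or HFD control 1. On NCD 0 of 3 were called by edgeR or DESeq2, with 2 at an unadjusted p under 0.05.

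A list of other thiolase and transferase genes also took in further genes of fatty acid oxidation. In it Hadha and Hadhb, the subunits of the trifunctional protein of that pathway, went the other way from Acat1 with metformin on NCD. Hadha had 72.1 ± 3.57 CPM in NCD metformin and 99.4 ± 23.6 CPM in NCD control (SD, n = 4), a log2 fold change of -0.46 ± 0.14 (SE, adjusted p = 0.0484, edgeR). Hadhb had 37.8 ± 6.56 CPM and 56.1 ± 14 CPM in the same groups (SD, n = 4) and -0.57 ± 0.17 (SE, adjusted p = 0.041, edgeR). These 2 of 7 tested genes were called lower and 0 higher. The count was 0 without NCD control 1, 2 or 3, NCD metformin 1, 2 or 3, HFD control 3 or HFD metformin 2 or 3, and 1 without NCD metformin 4, HFD control 2 or HFD metformin 1 or 4. It was also 1 with DESeq2's size factors or library size only, and 0 with no filter, the 2 groups alone, counts rebuilt from TPM, the term for title numbers or the length trend removed. On HFD 0 of 7 were called by edgeR or DESeq2, with 2 at an unadjusted p under 0.05. All 7 were positive there, with log2 fold changes of 0.01 for Hadha and 0.12 for Hadhb. Oxct2a and Oxct2b, the testis forms of the transferase in the mouse, had 0 counts in every library.

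Of the other monocarboxylate carriers and their partners 0 of 11 tested were called with metformin on NCD by edgeR or DESeq2, with 1 at an unadjusted p under 0.05, and the median log2 fold change was 0.01. The lowest p-values were those of Slc16a7, which encodes MCT2 (0.95 ± 0.38 SE, adjusted p = 0.121), and Slc16a11 (0.60 ± 0.35, adjusted p = 0.277, both edgeR). Bsg, basigin, the partner that brings MCT1 to the cell surface, had 96.7 ± 2.57 CPM in NCD metformin, 95.6 ± 5.30 CPM in NCD control, 97.4 ± 13.9 CPM in HFD metformin and 96.3 ± 6.39 CPM in HFD control (SD, n = 4), and was singled out after its values were seen. Of the receptors of ketone bodies and short-chain acids, Hcar2 had 0.338 ± 0.202 CPM in NCD metformin and 0.360 ± 0.459 CPM in NCD control (SD, n = 4), with a log2 fold change of -0.09 ± 0.70 (SE), and Ffar3 had 0 counts.

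Of 12 tested regulators and marker genes of fat use, Cpt1a alone was called with metformin on NCD. Cpt1a, carnitine palmitoyltransferase, which admits fatty acids to the mitochondrion, had 2.56 ± 0.569 CPM in NCD metformin and 5.19 ± 1.79 CPM in NCD control, with 5.69 ± 0.419 CPM in HFD metformin and 6.66 ± 1.37 CPM in HFD control (SD, n = 4). Its log2 fold change was -1.01 ± 0.23 with metformin on NCD (SE, adjusted p = 0.0193) and 1.15 ± 0.24 for HFD against NCD with metformin (adjusted p = 0.0322, edgeR), comparisons that share the NCD metformin libraries. The first call ended without NCD metformin 2 (adjusted p = 0.071), NCD metformin 3 (0.0551) or NCD control 1 (0.0609). The second ended without NCD metformin 2 (0.114), NCD metformin 3 (0.107) or HFD metformin 1 (0.0928), 2 (0.0604) or 4 (0.0551). With metformin on HFD, Cpt1a had a log2 fold change of -0.21, not called (adjusted p = 0.743, edgeR). For HFD without metformin it was 0.35, not called (adjusted p = 0.846, edgeR). Averaged, it was -0.61 for metformin (adjusted p = 0.028) and 0.75 for HFD (adjusted p = 0.0436, both edgeR).

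The genes whose log2 CPM followed each enzyme most closely over the 16 libraries were found by the root mean square difference of values centred on each gene's mean, among the 10452 genes that averaged 1 CPM or more (10453 for Slc16a6). For Acat1 they were Sdha, Fh1, fumarate hydratase, and Phb, prohibitin, with differences of 0.148, 0.15 and 0.151, against a median of 0.45 over all genes compared. For Bdh1 they were C1qbp, a mitochondrial matrix protein, Galk2 and Ddx39, at 0.179, 0.189 and 0.200 (median 0.52). For Oxct1 they were Cenpv, Gm20390 and Dgcr6, at 0.118, 0.151 and 0.161 (median 0.44). For Aacs they were Dact3, Inf2 and Eif3f, at 0.242, 0.247 and 0.258 (median 0.46). Those of Slc16a1 (Prss35, Atp2b2 and Itsn1, 0.395 to 0.419, median 0.73) and Slc16a6 (Eef1akmt2, Tbc1d31 and Zfp984, 0.368 to 0.394, median 0.61) differed by more. Slc16a1 and Slc16a6 also varied more themselves, with root mean square deviations from their means of 0.67 and 0.55. Bdh1 had 0.45, Oxct1 0.36, Acat1 0.37 and Aacs 0.39. These libraries share scaling and group structure, so the differences are descriptions and were not tested.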

How the data were processed

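Directional total RNA libraries of whole inguinal mammary gland were quantified with Salmon 1.3.0, and DESeq2 1.28.1 and GRCm38.p6 are named as well, per the submitters' processing notes. Per the file headers, the authors deposited estimated counts (NumReads) and TPM per transcript. The listed lengths are coding lengths (56929 of 56929 transcripts that could be compared, within 3 bases), so reads in untranslated regions were not measured. Estimated counts were summed per gene for 57452 of 58204 transcripts and rounded. The other 752 transcripts, with 0.165 to 0.218% of counts, matched no GENCODE M21 entry and were left out. No 2 libraries were alike within sampling noise (lowest chi-square per degree of freedom 12.72 over 120 pairs).

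The 12506 genes that passed edgeR's filterByExpr were fitted with TMM scaling and the 4 group means in edgeR 4.0.16 (R 4.3.3), with quasi-likelihood tests, two-sided, for 7 contrasts. Benjamini-Hochberg adjustment ran over all genes, and a call is an adjusted p under 0.05. The common coefficient of biological variation was 0.233 with 12 residual degrees of freedom. Ratios of TPM were compared by two-sided exact permutation tests of log2 values. The fit was tested on simulated data in which every gene had the same coefficient of variation. That test does not show how the fit behaves with the spread of these libraries. Alternatives were DESeq2 1.42.0 (size factors, Wald test), library size only, no filter, the 2 groups alone, counts rebuilt from TPM, a term for the gap in the numbers of the library titles, a length trend and leaving out each library. Median depth was 28944281 counts. The count floors cover counting error only.

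The genes, pathway lists and marker lists were chosen with earlier results of these data known. Named are all 7 genes and, of each list, its called genes up to 5 or else the 3 with the lowest p, plus the 3 nearest genes of each. Some genes of these lists are counted but not reported here.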

Additional observations from a re-analysis of the deposited data

Results flagged for a closer look

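In the ratio of Bdh1 to Oxct1 TPM, NCD control 4 had 0.474, against 0.434, 0.436 and 0.437 in the other NCD control libraries. Its distance from the nearest of these was 0.925 of the range of the group, above Dixon's 95% critical value of 0.829 for 4 samples. It was the only 1 of 40 groups of 4 values examined, and chance flags about 1 in 20. The other 3 libraries lay close together, and without NCD control 4 the averaged diet difference in this ratio stayed within -0.56 to -0.46 on the log2 scale, the range over all removals of 1 library.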

How the results depend on the processing

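No paired analysis was possible because the labels give no replicate numbers that link libraries across groups. Of 989 alternative values of the tested genes, 897 kept direction and call, 45 lost a call, 6 gained one and 41 changed sign, 0 of them past the threshold. Called under every alternative run were Bdh1 and Oxct1 for metformin on NCD, Bdh1, Oxct1 and Acat1 for metformin averaged over diets and Bdh1 for HFD averaged over treatments. The number of the 6 genes called for metformin on NCD was 2 to 4 on leaving out each library. For metformin on HFD it was 0 with library size only and with the 2 groups alone, 2 by DESeq2's Wald test and with the length trend removed, and 0 to 2 on leaving out each library. In that comparison DESeq2's Wald test called 170 of all 12506 genes, against 21 by edgeR. For HFD without metformin it was 1 with library size only, which called 39 genes in all, and 1 by DESeq2's Wald test, which called 65. For HFD with metformin it was 0 with the 2 groups alone and 0 to 1 on leaving out each library. For HFD averaged over treatments it was 2 with library size only. Library size only shifted the median log2 fold change of all genes by -0.07 for metformin and by -0.16 to -0.18 for HFD. Called higher and lower were then 248 and 742 genes for metformin on NCD (501 and 754 with TMM), and 357 and 897 for metformin averaged (728 and 696). They were 65 and 576 for HFD with metformin (232 and 63), and 49 and 1546 for HFD averaged (65 and 52). On leaving out each library, the genes called in all were 180 to 1461 for metformin on NCD, 3 (without HFD control 3) to 44 (without HFD metformin 4) for metformin on HFD, 711 (without NCD metformin 2) to 1505 for metformin averaged, 2 to 13 for HFD without metformin, 3 to 384 for HFD with metformin and 28 (without HFD control 3) to 180 (without NCD metformin 4) for HFD averaged. Values that changed sign, none of them called, were as follows (log2). With library size only they were Oxct1 (-0.08) and Aacs (-0.09) for HFD without metformin, Oxct1 for HFD averaged (-0.16), Slc16a6 for metformin averaged (-0.02) and Hmgcll1 for HFD with metformin (-0.03). With counts rebuilt from TPM it was Slc16a6 for metformin averaged (-0.09). With the term for title numbers they were Slc16a6 for metformin averaged (-0.03), Oxct1 for HFD averaged (-0.01), Hcar2 for metformin on NCD (0.12) and averaged (0.05) and Hmgcll1 for HFD with metformin (-0.09). With CPM it was the Oxct1 to Aacs ratio for HFD without metformin (-0.01). On leaving out each library the ranges that crossed 0 were, for Slc16a1, -0.09 to 0.92 (metformin on NCD), -0.49 to 0.21 (metformin on HFD), -0.09 to 0.29 (HFD without metformin), -1.02 to 0.18 (HFD with metformin), -1.19 to 0.02 (interaction), -0.07 to 0.45 (metformin averaged) and -0.43 to 0.17 (HFD averaged). For Slc16a6 they were -0.06 to 0.31 (metformin averaged) and -0.31 to 0.06 (HFD averaged). For HFD without metformin they were -0.06 to 0.21 for Aacs and -0.16 to 0.13 for Acat1. For Oxct1 they were -0.13 to 0.03 (HFD with metformin) and -0.03 to 0.05 (HFD averaged), and for the Bdh1 interaction -0.12 to 0.04. For the Oxct1 to Aacs ratio they were -0.19 to 0.23 (metformin on NCD) and -0.12 to 0.19 (HFD without metformin). For Hcar2 they were -0.51 to 1.32 (metformin on NCD) and -0.34 to 0.58 (metformin averaged), and for HFD with metformin -0.24 to 0.54 for Hmgcll1. The Oxct1 to Cs ratio with metformin had an exact permutation p of 0.0465 without NCD metformin 3 and 0.00694 without HFD metformin 4. The cause of these changes was not tested. Depth limits Bdh2, with 42 counts in all, and Slc16a6, with 182.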
